A study of Homo sapiens with 18 samples.

Results

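The 34 genes described here encode the stress sensors, chaperones, disulfide enzymes and degradation factors of the endoplasmic reticulum (ER), the compartment in which secreted and membrane proteins fold. They form a named list of ER stress sensors, folding factors and genes of ER-associated degradation, and each symbol was matched to 1 of the 60623 genes of the deposited count table. All 34 were among the 16414 genes with enough reads to be tested. RNA was sequenced from HEK-293E cells, an established line derived from human embryonic kidney, in 6 groups of 3 libraries. Starved cells were held overnight in DMEM with 0.1% fetal bovine serum, and fed cells were then returned to growth medium with 10% serum for 1 h or 4 h. Cells in each of these 3 feeding states were also treated with Torin1, which inhibits the kinase mTOR. That kinase couples nutrient supply to protein synthesis and growth. The sources used here state neither the dose and timing of Torin1 nor its solvent, and cells without it are called untreated below. All groups come from 1 line. The labels do not tell if each replicate was a culture of its own. A p-value here thus sets a difference between groups against the spread among these libraries, which may be only technical.

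Library totals ranged from 10510689 to 13690035 counts, and no 2 libraries of a group held identical counts. Levels are given as CPM, the usual depth-scaled counts, here with TMM-scaled library sizes. The 8 genes used to check the line, among them VIM, CDH2, NEFM and LIN28B, were all tested, and their summed level ran from 1040 to 1270 CPM without Torin1 and from 1460 to 1780 CPM with it. VIM made the largest part of that sum, with a mean of 915 CPM over all libraries. The lowest of the 8 were KRT8 and PAX2, with means of 18.6 and 2.14 CPM. Summed markers of other cells reached at most 5.61 CPM for immune, 1.75 CPM for endothelial and 0.918 CPM for hepatocyte genes. A list of 7 fibroblast genes summed to between 8.93 and 44.4 CPM, with the starved libraries from 11.2 to 44.4, and its part in the results was not tested.

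The unfolded protein response adjusts the folding capacity of the ER to its load. Its 3 main sensors sit in the ER membrane: IRE1 (encoded by ERN1), PERK (EIF2AK3) and ATF6. Active IRE1 cuts a short intron out of XBP1 mRNA and so lets it encode a strong transcription factor, PERK slows translation and favours that of ATF4, and ATF6 is cut in the Golgi to release a transcription factor. Their targets include chaperones such as HSPA5 (BiP), enzymes that form disulfide bonds, and the machinery that sends misfolded proteins back to the cytosol for degradation.

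The intron that IRE1 removes is shown because the deposited isoform table separates the XBP1 transcripts with and without it. In GENCODE release 29 the unspliced transcript (1850 bases) holds 26 bases, at positions 570 to 595, that the spliced one (1131 bases) lacks. The removed bases are in capitals, between the 15 bases on each side, and the joined form follows.
XBP1 unspliced: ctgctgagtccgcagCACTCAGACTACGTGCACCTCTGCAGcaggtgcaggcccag
XBP1 spliced: ctgctgagtccgcagcaggtgcaggcccag
The same joined sequence results from 7 placements of the intron, of which 1 is shown.

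Promoters of these genes are known for the ER stress response element (ERSE), which ATF6 and XBP1 bind: CCAAT, 9 bases of any kind, then CCACG, on either strand. Windows of 250 bases before to 50 after the start were found in RefSeq (GRCh38.p14) for 31 of the 34 genes, not for DERL1, DERL3 and PDIA3. The element was present in 7 of these 31 windows (22.6%) and in 22 of 27305 windows of all genes (0.0806%). Of the 7 genes, 4 are printed, with the CCAAT and CCACG of the element in capitals, because their RNA went in different directions with Torin1: HSPA5 and XBP1 fell, CALR was not called and ERO1B rose. CGTGG and ATTGG are CCACG and CCAAT read on the other strand, and each window is written along its gene's strand.
HSPA5, chr9:125241379-125241421, minus strand: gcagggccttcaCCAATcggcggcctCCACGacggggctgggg
XBP1, chr22:28800591-28800633, minus strand: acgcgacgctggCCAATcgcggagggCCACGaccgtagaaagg
CALR, chr19:12938372-12938414, plus strand: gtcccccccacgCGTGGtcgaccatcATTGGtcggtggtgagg
ERO1B, chr1:236282171-236282208, minus strand: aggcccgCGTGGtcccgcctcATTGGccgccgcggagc
The others with the element were CANX, CRELD2 and HSP90B1, the last with 2 copies.

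In untreated cells, 4 h of feeding lowered the RNA of part of the 34 genes, most of all ERN1, HERPUD1, XBP1 and EDEM1. Each of these fell to less than 1 in 2 of its starved level. Of the 34 genes, 16 fell, 3 rose and 15 were not called (edgeR quasi-likelihood test, Benjamini-Hochberg adjusted p under 0.05 over all tested genes). Over all tested genes, 19.1% fell and 23.2% rose. The median log2 fold change was −0.20 over the 34 genes and −0.00322 over all tested genes. In these bulk samples fewer cells with a transcript and less of it per cell cannot be told apart. After 1 h of feeding edgeR called 0 of the 34, against 0.481% of all tested genes higher and 0.164% lower. At an unadjusted p under 0.05 there were 6, but the share of all tested genes at that threshold was not counted. DESeq2 and limma-voom also called 0. Without 1 h fed replicate 1, DNAJB9 alone was called, with a log2 fold change of −0.55 (edgeR, adjusted p = 0.0495). From the 1 h to the 4 h fed state, 14 genes fell and 3 rose, against 18.1% and 21.7% of all tested genes.

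Torin1 lowered most of the list in every feeding state. In starved cells 21 genes fell and 6 rose, against 29.6% and 33.9% of all tested genes, and the median log2 fold change was −0.42 (0.09 over all tested genes). In 1 h fed cells 22 fell and 5 rose, against 29.9% and 33.2%, with a median of −0.39 (0.06 over all). In 4 h fed cells 20 fell and 6 rose, against 28.6% and 27.4%, with a median of −0.37 (0.02 over all). The 3 comparisons share no library with each other, but the first and last share the starved and the 4 h fed libraries with the 4 h feeding comparison. Across all 3 of them, 17 genes fell each time (19.6% of all tested genes did) and 4 rose each time (18.8%). ERN1 and EDEM1 were called in opposite directions in different states (3.69%), and CREB3L2, CALR, PDIA4 and SYVN1 were never called. Scaling by total counts alone raised the median log2 fold change of all genes by 0.137, 0.111 and 0.163 in the 3 states. With it, 10 of the 34 genes rose and 16 fell with Torin1 in 4 h fed cells, where 5773 of all tested genes rose and 3453 fell instead of 4505 and 4693.

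**Figure D1:**
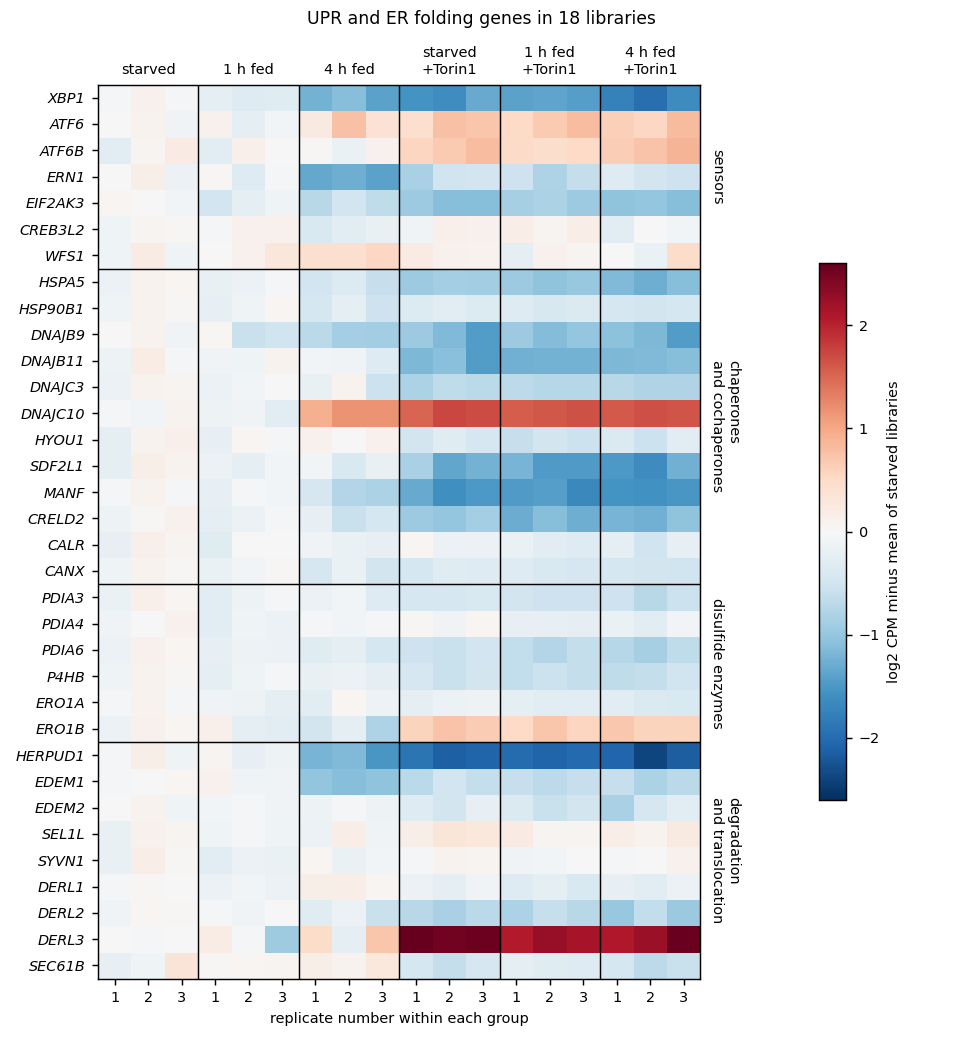
Level of each of the 34 genes (rows, grouped by role) in each of the 18 libraries (columns, grouped by feeding state and Torin1), as log2 CPM minus the mean log2 CPM of the 3 starved libraries. HERPUD1 and MANF turn blue (lower) in the 4 h fed libraries and more so with Torin1, and XBP1 is blue in both, where its levels overlap. DNAJC10 turns red (higher) in the same libraries, and DERL3 and ERO1B are red in the libraries with Torin1.

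Among the 7 sensor genes, 4 fell and 2 rose after 4 h of feeding, and 3 fell and 2 rose with Torin1 in each of the 3 states, though not the same genes. Over all tested genes 19.1% fell and 23.2% rose with 4 h of feeding. With Torin1 28.6 to 29.9% fell and 27.4 to 33.9% rose, so the sensor genes that rose were near the share over all tested genes. In starved and 1 h fed cells XBP1, ERN1 and EIF2AK3 fell with Torin1, and ATF6 and ATF6B rose. In 4 h fed cells XBP1, EIF2AK3 and WFS1 fell, ERN1 and ATF6B rose, and ATF6 was not called. XBP1, the transcription factor gene whose mRNA IRE1 splices, measured 341, 384 and 342 CPM in the starved libraries, 301, 282 and 284 after 1 h and 152, 164 and 136 after 4 h of feeding. Under Torin1 the values were 121, 116 and 143 CPM in starved libraries, 135, 138 and 132 after 1 h and 104, 90.8 and 115 after 4 h. No library with Torin1 overlapped an untreated library of the same feeding state. The same held for 68.5%, 67.1% and 60.5% of all tested genes in the starved, 1 h and 4 h fed states. XBP1 fell by 1.24 (SE 0.09) on the log2 scale with 4 h of feeding, and with Torin1 by 1.49 (SE 0.09) in starved, 1.09 (SE 0.09) in 1 h fed and 0.55 (SE 0.09) in 4 h fed cells.

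ERN1, which encodes the kinase and nuclease IRE1, measured 34.6, 39.1 and 31.7 CPM in starved libraries, 35.9, 27.8 and 33.95 after 1 h and 14.01, 14.6 and 13.4 after 4 h. With Torin1 the levels were 19.4, 24.4 and 24.7 CPM in starved libraries, 24.04, 20.1 and 22.9 after 1 h and 27.8, 25.3 and 24.2 after 4 h. The 4 h fed untreated libraries were thus the lowest of all 18, below those with Torin1. ERN1 fell by 1.33 (SE 0.13) on the log2 scale with 4 h of feeding and by 0.63 (SE 0.13) with Torin1 in starved cells, and it was higher by 0.88 (SE 0.13) with Torin1 in 4 h fed cells (edgeR, adjusted p = 1.52e-06).

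EIF2AK3, the gene of PERK, fell by 0.62 (SE 0.11) on the log2 scale with 4 h of feeding and with Torin1 in all 3 states, by 1.05 (SE 0.11) in starved cells. Its range was 39.3 to 42.7 CPM in starved cells, 24.8 to 29.3 after 4 h and 19.0 to 21.3 with Torin1 in starved cells. ATF6 moved the other way: its log2 fold change was 0.47 (SE 0.12) with 4 h of feeding and 0.64 (SE 0.12) with Torin1 in starved cells. The call of ATF6 with feeding was lost without 4 h fed replicate 2 (log2 fold change 0.29, edgeR, adjusted p = 0.06). ATF6B, a relative of ATF6, rose with Torin1 in all 3 states, from a mean of 61.4 CPM (SD 10.3, n = 3) to 97.6 (SD 7.84, n = 3) in starved cells, and was not called with 4 h of feeding. WFS1, an ER membrane protein gene, rose by a log2 fold change of 0.45 (SE 0.14) with 4 h of feeding. CREB3L2, which encodes another membrane-bound transcription factor, fell by 0.29 (SE 0.09) on the log2 scale. Leaving out starved replicate 2 or 4 h fed replicate 1 ended that call (edgeR, adjusted p = 0.0503 and 0.0632).

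The lower value of WFS1 with Torin1 in 4 h fed cells (log2 fold change −0.33, SE 0.13) passed the test with an adjusted p of 0.0388 (edgeR). It did not pass without 4 h fed replicate 1, 2 or 3 or without replicate 1 or 2 of the 4 h fed cells with Torin1, where adjusted p was 0.0544 to 0.256. Nor did it pass with total counts alone (log2 fold change −0.163, edgeR, adjusted p = 0.303) or with only the groups compared (edgeR, adjusted p = 0.082).

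**Figure D2:**
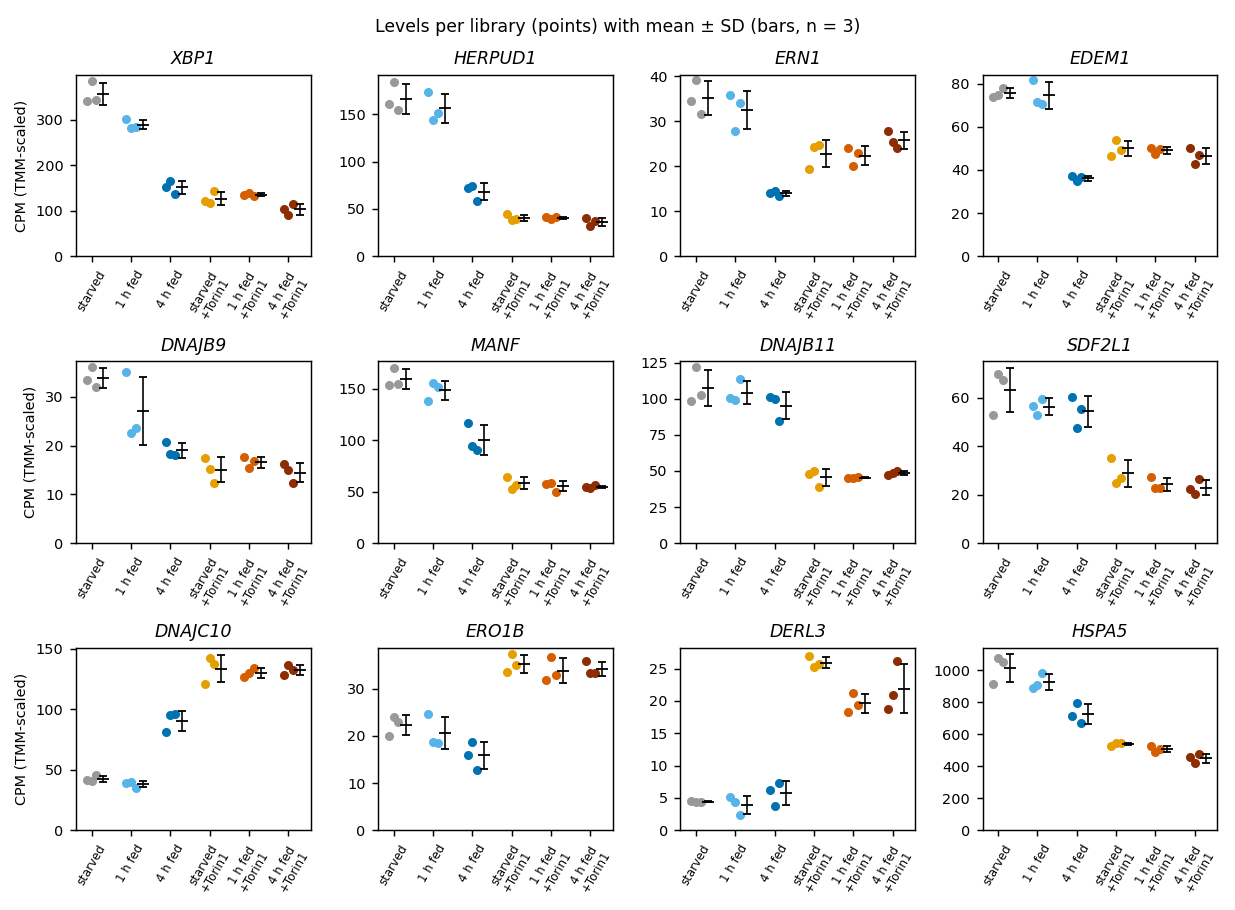
CPM of 12 genes in each library (points, 3 per group) with the group mean and SD beside them (black bars), on axes that start at 0. The 4 h fed points lie between the starved points and those with Torin1 for HERPUD1, MANF, DNAJC10 and HSPA5, and below both for ERN1 and EDEM1.

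Among the 12 chaperones and cochaperones, 6 fell and 1 rose with 4 h of feeding, 10 fell and 1 rose with Torin1 in starved and in 1 h fed cells, and 8 fell and 1 rose with Torin1 in 4 h fed cells. The shares over all tested genes were 19.1% lower and 23.2% higher with feeding, and 28.6 to 29.9% lower and 27.4 to 33.9% higher with Torin1. HSPA5, the main Hsp70 of the ER and a brake on the sensors, ranged from 913 to 1077 CPM in starved cells, 669 to 795 after 4 h of feeding and 529 to 545 with Torin1 in starved cells. It fell by 0.48 (SE 0.08) with 4 h of feeding and, with Torin1, by 0.91 (SE 0.08) in starved, 0.87 (SE 0.08) in 1 h fed and 0.69 (SE 0.08) in 4 h fed cells, all on the log2 scale. HSP90B1, the Hsp90 of the ER, and CANX, a lectin chaperone, each fell with 4 h of feeding and with Torin1 in starved and 1 h fed cells, by 0.29 to 0.40 on the log2 scale, and were not called with Torin1 in 4 h fed cells. CALR, the soluble lectin chaperone, was called in none of the 3 Torin1 comparisons, and its 95% interval in starved cells ran from −0.28 to 0.11 on the log2 scale.

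MANF, a secreted stress-induced partner of HSPA5, measured 153, 170.4 and 155 CPM in starved libraries, 138, 156 and 152 after 1 h and 117, 94.1 and 90.1 after 4 h. In the presence of Torin1 it measured 64.7, 52.8 and 56.9 CPM in starved libraries, 57.4, 58.7 and 49.6 after 1 h and 54.3, 53.3 and 56.04 after 4 h. Every library with Torin1 was below every untreated one. The share of all tested genes with such a separation was not counted, here or for the genes below. MANF fell by 0.67 (SE 0.10) on the log2 scale with 4 h of feeding and by 1.45 (SE 0.10) with Torin1 in starved cells.

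DNAJB11 and SDF2L1, whose products act together as a cochaperone of HSPA5, fell with Torin1 but were not called with feeding. DNAJB11 measured 98.3, 122 and 103 CPM in starved libraries, 100.2, 99.2 and 114 after 1 h, 101.4, 100 and 84.4 after 4 h, and with Torin1 at 48.0, 50.1 and 39.0, then 45.0, 45.4 and 45.5, then 47.4, 48.2 and 49.9. SDF2L1 measured 53.0, 69.7 and 67.2 CPM in starved libraries, 56.6, 52.7 and 59.6 after 1 h, 60.2, 47.6 and 55.2 after 4 h, and with Torin1 at 35.0, 24.8 and 26.7, then 27.3, 22.7 and 22.7, then 22.3, 20.1 and 26.4. For both genes all 9 libraries with Torin1 lay below all 9 without it. In starved, 1 h and 4 h fed cells DNAJB11 fell by 1.23, 1.20 and 0.97 (SE 0.10 each) and SDF2L1 by 1.13, 1.22 and 1.25 (SE 0.13 each) on the log2 scale with Torin1. With 4 h of feeding the 95% interval of the log2 fold change was −0.38 to 0.02 for DNAJB11 and −0.48 to 0.04 for SDF2L1.

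DNAJB9, a cochaperone that brings HSPA5 to IRE1, measured 33.5, 36.1 and 32.0 CPM in starved libraries, 35.1, 22.6 and 23.6 after 1 h and 20.8, 18.2 and 18.1 after 4 h. With Torin1 it measured 17.5, 15.3 and 12.4 CPM in starved libraries, 17.6, 15.4 and 16.9 after 1 h and 16.2, 15.01 and 12.3 after 4 h. After 1 h of feeding replicate 1 was at the starved level and the other two were lower. DNAJB9 fell by 0.83 (SE 0.15) with 4 h of feeding, and with Torin1 by 1.16 (SE 0.15) in starved and 0.70 (SE 0.15) in 1 h fed cells, on the log2 scale. In 4 h fed cells it fell by 0.40 (SE 0.16) with Torin1. That last call was lost with total counts alone (log2 fold change −0.23) and without replicate 1 or 2 of the 4 h fed cells or replicate 2 or 3 of the 4 h fed cells with Torin1, where the adjusted p was 0.0523 to 0.164 (edgeR). In the gene annotation DNAJB9 overlaps PNPLA8 and THAP5 on the opposite strand by 99 and 183 bases. Both fell with 4 h of feeding, by 0.93 (SE 0.13) for PNPLA8 and 0.34 (SE 0.11) for THAP5 on the log2 scale, and with Torin1 in starved cells, by 1.23 (SE 0.13) for PNPLA8 and 0.40 (SE 0.11) for THAP5. The use of strand in counting is not given, and the part of the overlap in the DNAJB9 values was not tested.

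DNAJC10, a J-domain protein that reduces disulfide bonds of proteins bound for degradation, was the chaperone gene that rose. It measured 41.7, 40.6 and 45.3 CPM in starved libraries, 38.7, 40.0 and 35.1 after 1 h and 80.9, 94.8 and 95.8 after 4 h. Under Torin1 the values were 121, 142 and 138 CPM in starved libraries, 126, 130 and 134 after 1 h and 129, 137 and 132 after 4 h. The 4 h fed libraries lay above all other untreated libraries and below all libraries with Torin1. Its log2 fold change was 1.09 (SE 0.09) with 4 h of feeding and 1.65 (SE 0.09), 1.78 (SE 0.09) and 0.55 (SE 0.09) with Torin1 in the starved, 1 h and 4 h fed states.

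The other cochaperones fell with Torin1 in all 3 states. DNAJC3, which encodes a cochaperone and PERK inhibitor, had a mean of 83.5 CPM (SD 7.28, n = 3) in starved cells and 50.2 (SD 2.94, n = 3) with Torin1. HYOU1, a nucleotide exchange factor for HSPA5, had 255 CPM (SD 33.3, n = 3) and 191 (SD 10.2, n = 3). CRELD2, a stress-induced folding factor, had 85.7 CPM (SD 7.4, n = 3) and 44.5 (SD 1.73, n = 3). Of these, CRELD2 alone was called with 4 h of feeding, where it fell by 0.42 (SE 0.10) on the log2 scale. CRELD2 overlaps ALG12 on the opposite strand by 168 bases. ALG12 had a mean of 489.5 counts per library against 677.9 for CRELD2. It was not called with 4 h of feeding or with Torin1 in starved or 1 h fed cells. With Torin1 in 4 h fed cells it rose by a log2 fold change of 0.28 (SE 0.10). The part of the overlap in the CRELD2 values was not tested.

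Of the 6 disulfide genes, 3 fell and 0 rose with 4 h of feeding, against 19.1% and 23.2% of all tested genes. Those that fell were PDIA6 and P4HB, which encode protein disulfide isomerases, and ERO1B, an oxidase that recharges them. P4HB fell by 0.20 (SE 0.07) on the log2 scale, and its call was lost when starved replicate 2 or 3, or 4 h fed replicate 1 or 3, was left out (edgeR, adjusted p = 0.057 to 0.135). With Torin1, PDIA3, PDIA6 and P4HB fell in all 3 states, by 0.37 to 0.54 on the log2 scale. PDIA6 overlaps ATP6V1C2 on the opposite strand by 936 bases. ATP6V1C2 had a mean of 921 counts per library against 4484 for PDIA6. Its log2 fold change was −0.34 with 4 h of feeding and −0.43, −0.415 and −0.26 with Torin1 in starved, 1 h and 4 h fed cells. The part of the overlap in the PDIA6 values was not tested. PDIA4 was called in neither the Torin1 nor the 4 h feeding comparisons. ERO1A, the other oxidase, fell with Torin1 in 4 h fed cells by 0.23 (SE 0.09), a call that was lost under 6 alternatives, with adjusted p up to 0.484 under scaling by total counts. These included leaving out 4 h fed replicate 2 or, with Torin1, 4 h fed replicate 2 or 3 (edgeR, adjusted p = 0.264, 0.0625 and 0.0734).

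ERO1B moved opposite ways with feeding and Torin1. It measured 20.0, 24.1 and 23.1 CPM in starved libraries, 24.6, 18.7 and 18.5 after 1 h and 16.02, 18.7 and 12.8 after 4 h. With Torin1 the levels were 33.6, 37.4 and 35.1 CPM in starved libraries, 31.8, 36.8 and 32.9 after 1 h and 36.0, 33.5 and 33.5 after 4 h. All 9 libraries with Torin1 lay above all 9 without. ERO1B fell by 0.50 (SE 0.14) on the log2 scale with 4 h of feeding and rose with Torin1 by log2 fold changes of 0.66 (SE 0.13), 0.72 (SE 0.13) and 1.11 (SE 0.13) in the starved, 1 h and 4 h fed states.

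Of the 9 genes of degradation and translocation, 3 fell and 0 rose with 4 h of feeding. With Torin1 5 fell and 2 rose in starved cells, 6 fell and 1 rose in 1 h fed cells, and 5 fell and 2 rose in 4 h fed cells. Of all tested genes 19.1% fell and 23.2% rose with feeding, and 28.6 to 29.9% fell and 27.4 to 33.9% rose with Torin1. HERPUD1, an ER membrane protein that organises the degradation complex, measured 160.4, 184 and 154 CPM in starved libraries, 174, 144 and 151 after 1 h and 71.7, 74.6 and 58.0 after 4 h. In the presence of Torin1 it measured 44.2, 38.2 and 39.3 CPM in starved libraries, 41.7, 39.4 and 41.0 after 1 h and 40.0, 31.6 and 37.5 after 4 h. All libraries with Torin1 lay below the lowest untreated one. HERPUD1 fell by 1.29 (SE 0.10) on the log2 scale with 4 h of feeding. Its log2 fold changes with Torin1 were −2.03 (SE 0.11), −1.94 (SE 0.11) and −0.90 (SE 0.11) in the starved, 1 h and 4 h fed states.

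EDEM1, which speeds the removal of misfolded glycoproteins, measured 73.8, 74.8 and 78.2 CPM in starved libraries, 81.9, 71.4 and 70.8 after 1 h and 37.1, 34.9 and 36.6 after 4 h. With Torin1 it measured 46.6, 53.9 and 49.5 CPM in starved libraries, 50.2, 47.4 and 49.8 after 1 h and 50.1, 42.7 and 46.8 after 4 h. As for ERN1, the untreated 4 h fed libraries were the lowest of all. EDEM1 fell by 1.06 (SE 0.09) on the log2 scale with 4 h of feeding and by 0.60 (SE 0.09) with Torin1 in starved and in 1 h fed cells, and its log2 fold change with Torin1 in 4 h fed cells was 0.36 (SE 0.09).

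DERL3, a derlin of the channel that exports misfolded proteins, had the largest change with Torin1 among the 34. It measured 4.47, 4.35 and 4.41 CPM in starved libraries, 5.05, 4.32 and 2.32 after 1 h and 6.13, 3.74 and 7.31 after 4 h. Under Torin1 the values were 26.9, 25.2 and 25.7 CPM in starved libraries, 18.3, 21.2 and 19.4 after 1 h and 18.7, 20.9 and 26.1 after 4 h. Its log2 fold changes with Torin1 were 2.56 (SE 0.21), 2.33 (SE 0.21) and 1.93 (SE 0.20). DERL3 is also known as a gene of plasma cells, and it was 1 of 5 genes on a list of plasma and secretory cell markers, which summed to 5.45 to 21.4 CPM without Torin1 and 25.2 to 39.6 CPM with it. Of the other 4, SDC1 ran from 3.13 to 14.1 CPM, JCHAIN and MZB1 reached at most 0.291 and 0.641 CPM, and TNFRSF17 was at 0 in all libraries. The part of such cells in the DERL3 values was not tested. DERL3 overlaps SMARCB1, a chromatin gene on the opposite strand, by 2715 bases, and SMARCB1 had a mean of 2816 counts per library against 172 for DERL3. SMARCB1 also rose with Torin1 in starved and 1 h fed cells, by log2 fold changes of 0.57 (SE 0.08) and 0.62 (SE 0.08), but it was not called in 4 h fed cells (0.03, SE 0.07), where DERL3 was. With 4 h of feeding SMARCB1 rose (0.70, SE 0.08) and DERL3 was not called (0.38, SE 0.23). Among DERL3 transcripts, the 3525-base one, annotated with a retained intron, had the most estimated counts, with a mean of 29 in starved cells and 177 with Torin1. A coding transcript of 1063 bases had 6.67 and 39.7. The part of the overlap in the DERL3 values was not tested, and its level is uncertain.

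The remaining degradation genes changed less. DERL2, a second derlin, fell with Torin1 in all 3 states, by 0.52 to 0.76 on the log2 scale. It fell by 0.34 (SE 0.11) with 4 h of feeding, a call that ended when starved replicate 2 or 4 h fed replicate 3 was left out (edgeR, adjusted p = 0.0507 and 0.118). DERL2 overlaps MIS12, a gene of the kinetochore, on the opposite strand by 301 bases. MIS12 had a mean of 569.5 counts per library against 493.5 for DERL2, and it also fell with Torin1, by 0.85 (SE 0.11), 0.53 (SE 0.10) and 0.64 (SE 0.11) on the log2 scale. It was not called with 4 h of feeding, and the part of the overlap in the DERL2 values was not tested. SEC61B, a subunit of the channel through which proteins enter the ER, fell with Torin1 by 0.52 (SE 0.11), 0.35 (SE 0.11) and 0.75 (SE 0.11), and with total counts alone the call in 1 h fed cells was lost (edgeR, adjusted p = 0.0545). EDEM2, which starts mannose trimming, fell with Torin1 by 0.34 to 0.41, and its call in starved cells was lost without starved replicate 1 or 2 or replicate 1 or 2 of the starved cells with Torin1 (edgeR, adjusted p = 0.0511 to 0.107). The same call was lost without the filter (edgeR, adjusted p = 0.0632). Its call in 4 h fed cells was lost without replicate 1 of the 4 h fed cells with Torin1 (edgeR, adjusted p = 0.104), and with total counts alone EDEM2 was called in none of the 3 states. DERL1 fell with Torin1 in 1 h and 4 h fed cells, by 0.20 (SE 0.08) and 0.35 (SE 0.08). The first of these calls was lost without 1 h fed replicate 2 or, with Torin1, 1 h fed replicate 1 or 3 (edgeR, adjusted p = 0.0717 to 0.114). It was also lost with total counts alone (log2 fold change −0.089, edgeR, adjusted p = 0.323) and without the filter (adjusted p = 0.128). DERL1 overlaps TBC1D31 on the opposite strand by 396 bases, and TBC1D31 had a mean of 356 counts per library against 948 for DERL1. TBC1D31 rose with Torin1 in starved and 1 h fed cells, by log2 fold changes of 0.73 and 0.83. The part of this overlap in the DERL1 values was not tested. SEL1L, the adaptor of the ubiquitin ligase SYVN1, had a log2 fold change of 0.24 (SE 0.09) with Torin1 in starved cells. This call was lost with DESeq2 scaling and without starved replicate 1 or replicate 2 or 3 of the starved cells with Torin1 (edgeR, adjusted p = 0.072 to 0.191). DESeq2's Wald test did not call SEL1L there either (adjusted p = 0.0772). SYVN1 itself was called in neither the 4 h feeding nor the Torin1 comparisons. It overlaps the more abundant genes FAU and MRPL49 by 356 and 158 bases, both of which fell with Torin1 in all 3 states, so its level is uncertain.

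**Figure D3:**
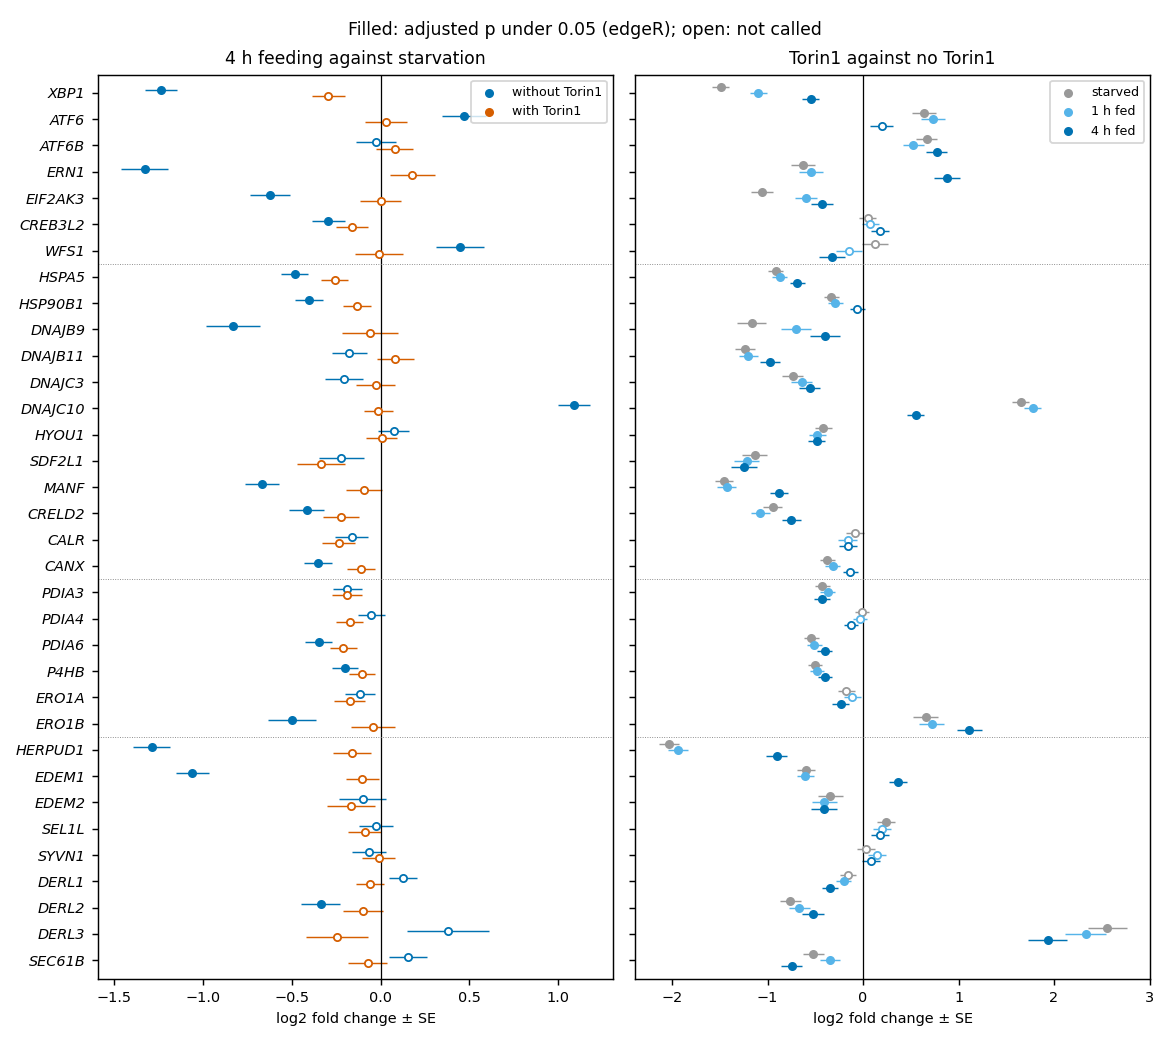
Log2 fold change with SE for each of the 34 genes, with 4 h of feeding against starvation without and with Torin1 (left) and with Torin1 in the 3 feeding states (right). Filled points passed an adjusted p of 0.05 in edgeR and open points did not. On the left all points with Torin1 are open, and on the right the 4 h fed point of ERN1 and EDEM1 lies on the other side of 0 from the starved and 1 h fed points.

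With Torin1 present, feeding changed none of the 34 genes past the threshold. After 1 h edgeR called 0, and after 4 h it called 0. Over all tested genes 0.274% rose and 0.128% fell after 1 h, and 0.829% rose and 0.975% fell after 4 h. At an unadjusted p under 0.05 there were 4 genes after 1 h and 9 after 4 h, without a share over all tested genes to set them against. The log2 fold change of XBP1 after 4 h was −0.29 (SE 0.09, 95% interval −0.48 to −0.11) and that of HSPA5 was −0.26 (SE 0.08). limma-voom also called 0 at both times. DESeq2's Wald test called 0 after 1 h and HSPA5 after 4 h (adjusted p = 0.0435), and so did edgeR fitted to only the groups compared (adjusted p = 0.0226). In the latter kind of fit PDIA4 was called after 1 h (edgeR, adjusted p = 0.0312). For HERPUD1 the 95% interval after 4 h with Torin1 was −0.38 to 0.06 on the log2 scale, for EDEM1 −0.29 to 0.09, for ERN1 −0.08 to 0.44 and for DNAJC10 −0.18 to 0.16.

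Whether feeding acted differently with and without Torin1 was tested by their interaction, the log2 fold change with feeding under Torin1 minus that without. At 4 h, 7 of the 34 genes had a positive interaction and 1 a negative one, against 9.74% and 16% of all tested genes. The positive ones were XBP1, ERN1, EIF2AK3, DNAJB9, MANF, HERPUD1 and EDEM1, all of which fell with feeding in untreated cells, and the negative one was DNAJC10, which rose. The interaction was 1.51 (SE 0.18) for ERN1, 1.13 (SE 0.15) for HERPUD1, 0.96 (SE 0.13) for EDEM1, 0.94 (SE 0.13) for XBP1 and −1.10 (SE 0.12) for DNAJC10. All 8 were called under every alternative tried. Without 4 h fed replicate 2, 13 genes were called, with HSPA5, HSP90B1, CANX, ERO1B and DERL3 added. At 1 h edgeR called 0 of the 34, against 0.0122% of all tested genes higher and 0.0548% lower. There were 3 at an unadjusted p under 0.05, where the share over all tested genes was not counted, and DESeq2 and limma-voom called 0. The interaction at 4 h uses the same libraries as the feeding and Torin1 comparisons, so it is no separate evidence of either.

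XBP1 can also be followed as its spliced and unspliced transcripts. The unspliced transcript held between 1035 and 4052 estimated counts per library, and the spliced one between 70 and 439. The spliced form made up 13.2, 8.70 and 8.71% of both in the starved libraries, 9.89, 5.24 and 4.78% after 1 h and 11.3, 13.0 and 7.64% after 4 h of feeding. With Torin1 it made up 11.7, 6.64 and 11.8% in starved cells, 7.76, 4.35 and 6.57% after 1 h and 11.8, 10.2 and 14% after 4 h. The ranges overlapped in each of the 8 pairs of groups compared, and exact two-sided permutation tests, added after the values were seen, gave an unadjusted p between 0.2 and 1, where groups of 3 cannot go below 0.1. Among pairs not tested, the shares of 1 h fed cells with Torin1 lay below those of 4 h fed cells with Torin1 and of untreated starved cells without overlap, and those of untreated 1 h fed cells lay below those of 4 h fed cells with Torin1. The mean spliced level was 34.2 CPM (SD 7.69, n = 3) in starved cells, 14.7 (SD 5.29, n = 3) after 4 h and 13.1 (SD 4.89, n = 3) in starved cells with Torin1. The unspliced level was 304 CPM (SD 28.9, n = 3), 121 (SD 10.6, n = 3) and 116 (SD 11.9, n = 3). Replicates of a group could differ by more than counting error: the exact (Clopper-Pearson) 95% interval was 12 to 14.4% for starved replicate 1 and 7.88 to 9.57% for replicate 2. These intervals cover counting error only. The spliced form is annotated as a shorter transcript, so the share depends on how reads common to both were divided and is not a share of molecules.

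**Figure D4:**
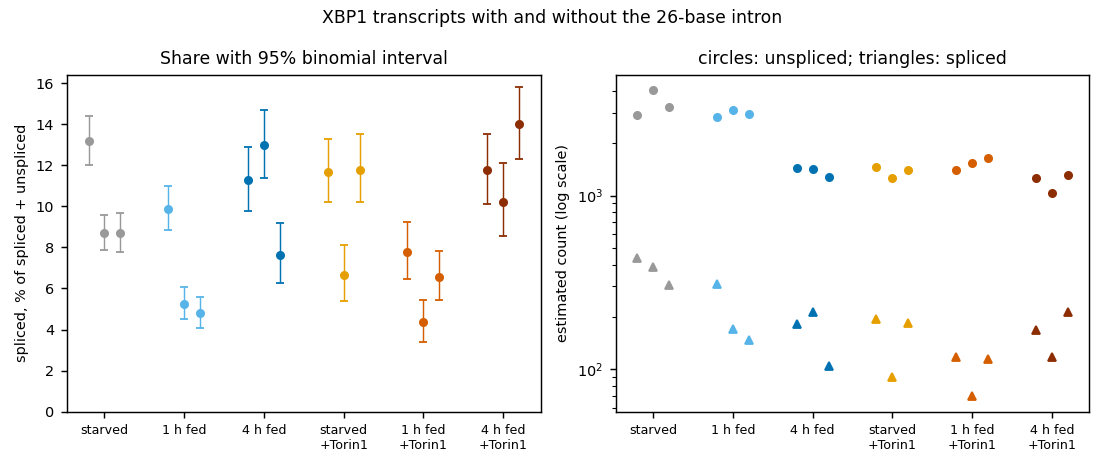
Left, spliced XBP1 as percent of spliced plus unspliced estimated counts in each library, with exact 95% binomial intervals. Right, the estimated counts of the unspliced (circles) and spliced (triangles) forms on a log axis. The shares of all groups lie between 4.35 and 14%, while the unspliced counts are lower in the 4 h fed libraries and in all libraries with Torin1 than in starved and 1 h fed libraries.

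Other genes of the same pathways were followed by lists. Their counts stand beside shares over all tested genes of 19.1% lower and 23.2% higher with 4 h of feeding, and with Torin1 of 29.6% and 33.9% in starved, 29.9% and 33.2% in 1 h fed and 28.6% and 27.4% in 4 h fed cells. Of 12 genes listed as output of PERK and ATF4, with ATF4 among them, 7 fell and 0 rose with 4 h of feeding. With Torin1 11 fell in starved, 12 in 1 h fed and 10 in 4 h fed cells, with 0 higher. The part of PERK in these values was not tested. DDIT3, the stress factor CHOP, fell from a mean of 35.8 CPM in starved cells to 10.0 after 4 h, by 1.83 (SE 0.23) on the log2 scale. CHAC1, which degrades glutathione, fell by 1.59 (SE 0.24) with 4 h of feeding and from 39.4 to 0.806 CPM with Torin1 in starved cells. ASNS, asparagine synthetase, fell from 366 to 45.6 CPM with Torin1 in starved cells. The secreted factor STC2 fell with 4 h of feeding under Torin1, by 0.69 (SE 0.09), the 1 gene of this list called there. With 1 h of feeding under Torin1 the transcription factor genes ATF3 and ATF4 rose, by log2 fold changes of 1.45 (SE 0.23) and 0.29 (SE 0.07).

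Of 17 genes of translocation into the ER and signal peptide removal, 7 fell and 1 rose with 4 h of feeding, and 15, 14 and 13 fell with Torin1 in the 3 states, against 19.1% lower with feeding and 28.6 to 29.9% lower with Torin1 over all tested genes. SRP54, of the signal recognition particle, fell by 1.16 (SE 0.09) and SEC61G, of the channel, by 1.11 (SE 0.15) on the log2 scale with Torin1 in starved cells. SRPRB, a subunit of the particle's receptor, rose with 4 h of feeding by 0.54 (SE 0.09) and fell with Torin1 in 4 h fed cells by 1.13 (SE 0.09). Of 11 COPII genes, which form vesicles that leave the ER, 3 fell and 3 rose with feeding, near the shares over all tested genes (19.1% and 23.2%), and 8, 8 and 9 fell with Torin1, among them SEC24A by 1.43 (SE 0.11) in starved cells. Of 22 other folding enzymes, 11 fell and 3 rose with feeding, 11 fell and 6 rose with Torin1 in starved cells, and 7 fell and 3 rose with it in 4 h fed cells. FKBP2, a prolyl isomerase of the ER, had a log2 fold change of −1.08 (SE 0.21) with feeding and −2.15 (SE 0.22) with Torin1 in starved cells.

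Of 20 other degradation genes, 7 fell and 6 rose with feeding, and with Torin1 11 fell and 5 rose in starved, 10 and 5 in 1 h fed and 10 and 6 in 4 h fed cells. Of 11 N-glycosylation genes, 3 fell and 1 rose with feeding, and with Torin1 5 fell and 3 rose in starved, 4 and 3 in 1 h fed and 5 and 1 in 4 h fed cells. AUP1, which recruits a ubiquitin-conjugating enzyme to the ER, rose by log2 fold changes of 1.17 (SE 0.11) with feeding and 1.62 (SE 0.11) with Torin1 in starved cells. DAD1, a subunit of the oligosaccharyltransferase, fell by 0.89 (SE 0.09) with Torin1 in starved cells. Of 12 other sensors and site proteases, 10 were tested, and 3 rose and 1 fell with feeding and 5 rose and 3 fell with Torin1 in starved cells. MBTPS2, the protease that cuts ATF6 within the membrane, rose from 13.2 to 24.6 CPM with feeding and to 56.1 CPM with Torin1 in starved cells.

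The last list held 7 transcripts that IRE1 is known to cut in other cells, of which 6 were tested. With Torin1 5 of the 6 rose and 0 fell in each feeding state, where 33.9%, 33.2% and 27.4% of all tested genes rose. With 4 h of feeding 2 rose and 1 fell, near the shares over all tested genes. HGSNAT, a lysosomal acetyltransferase, rose from a mean of 5.63 to 58.0 CPM with Torin1 in starved cells, and SCARA3, a scavenger receptor gene, from 2.00 to 6.29 CPM. After 1 h of feeding without Torin1 all these lists held 0 called genes, save STC2 in the list of PERK and ATF4, which fell by 0.37 (SE 0.08).

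**Figure D5:**
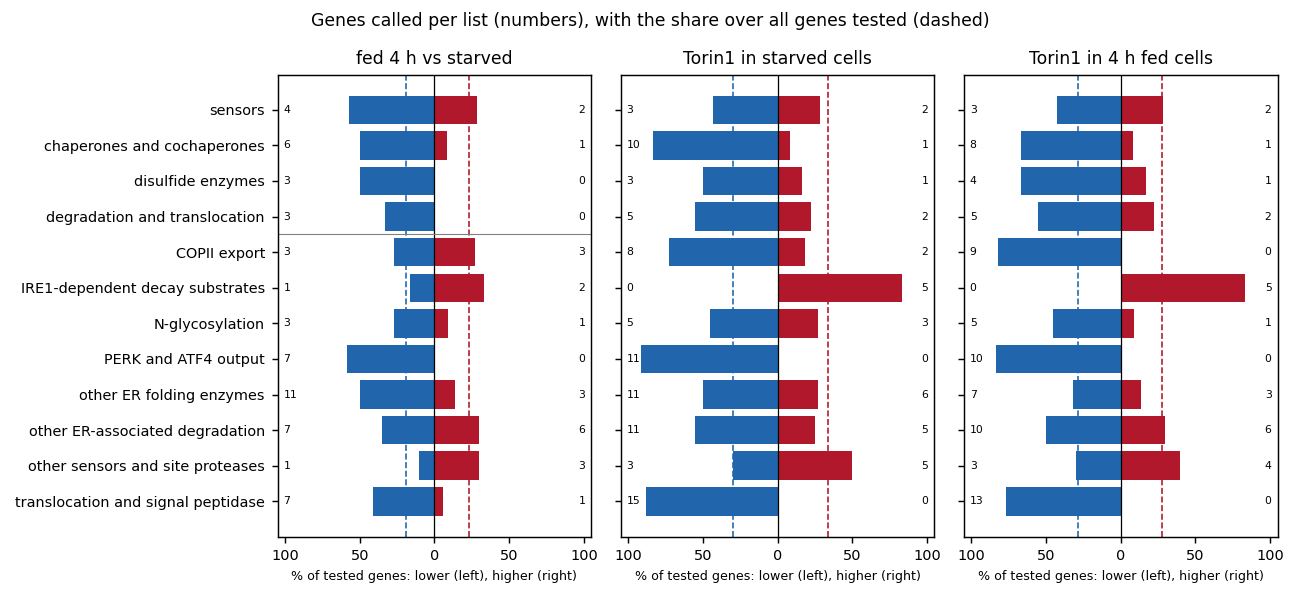
Percent of tested genes called higher (right, red) and lower (left, blue) for the 4 roles of the 34 genes (top) and the 8 other lists, with the number of genes at the edges and the share over all tested genes as dashed lines, for 4 h of feeding and for Torin1 in starved and in 4 h fed cells. The blue bars of all 4 roles and of most other lists pass the dashed line in all 3 panels, and the decay substrates have no blue bar with Torin1.

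The ERSE was found both in genes that fell with Torin1 in all 3 states and in genes that did not. It was present in 3 of the 16 genes with a promoter window that fell with Torin1 in all 3 states (CRELD2, HSPA5 and XBP1) and in 4 of the other 15 (CALR, CANX, ERO1B and HSP90B1). Of these 4, CANX and HSP90B1 did fall with Torin1 in starved and 1 h fed cells. Shorter motifs were also searched on both strands. CCAAT, which the element contains, was in 83.9% of the 31 windows against 35.7% of all, and CCACG in 67.7% against 37.9%. The longer XBP1 site TGACGTGG was in DNAJC10 and HYOU1 (0.795% of all windows), and its core TGACGT in 6 of the 31 (19.4% against 8.32%). The ATF4 type site TGATGNAA was in HERPUD1 alone of the 31 (3.67% of all). A match describes letters in the window, not binding.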

How the data were processed

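Total RNA of 18 HEK-293E libraries was sequenced. Per the labels' protocols, STAR aligned the reads in 2-pass mode. Those protocols name a C. elegans build, whereas the deposited identifiers are human Ensembl genes, so the human build is not given in the sources used here. RSEM and DESeq2 are also named in the submitters' processing notes, without versions. The authors deposited expected counts (estimated read counts) per gene, of which 3.32% were not whole, and per isoform, as whole numbers. Neither table was normalised.

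Gene counts were rounded, filtered with filterByExpr (minimum count 10), scaled by TMM and fitted with edgeR 4.0.16 (R 4.3.3) with 1 mean per group (6 groups, 18 libraries) and robust quasi-likelihood F tests. There were 12 residual degrees of freedom, and the biological coefficient of variation was 10.6%. Within each comparison the Benjamini-Hochberg adjustment ran over all 16414 genes tested, and an adjusted p under 0.05 was called. SE is the absolute log2 fold change divided by the square root of F. The test was also run on simulated counts, in which few genes changed and only in 4 h fed cells. That run could not check the scaling where many genes change, as with Torin1 here. CPM use TMM-scaled totals.

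The 34 genes, the other lists and the tests were chosen with earlier results of these data known. Values in every library are given for XBP1, HERPUD1 and the 6 called genes with the largest changes with 4 h of feeding and with Torin1 in starved and in 4 h fed cells, and of each other list the 2 called genes with the largest changes could be named. Transcripts and overlaps were taken from GENCODE release 29, which matched 205883 of 227368 isoforms holding 98.9% of isoform counts. A planned test of isoform use (diffSpliceDGE) was run, but on simulated counts it recovered 1 of 50 genes changed 2-fold and 4 of 50 changed 4-fold, with 43 unchanged genes called, so its calls are not reported. Alternatives were DESeq2 1.42.0 size factors, its Wald test, limma-voom (limma 3.58.1), scaling by total counts, no filter, a fit to only the groups compared, a block for the replicate number and leaving out each library.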

Additional observations from a re-analysis of the deposited data

Results flagged for a closer look

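The 8 genes below responded differently to 4 h of feeding with and without Torin1, by the test of the difference itself (edgeR interaction, called over all tested genes). The values are log2 fold changes with feeding under Torin1 minus those without it. They were 1.51 for ERN1, 1.13 for HERPUD1, 0.96 for EDEM1, 0.94 for XBP1, 0.77 for DNAJB9, 0.62 for EIF2AK3, 0.57 for MANF and −1.10 for DNAJC10. In untreated cells the first 7 fell and DNAJC10 rose with 4 h of feeding. Under Torin1 none of the 8 was called with feeding by edgeR. Over all tested genes 9.74% had a positive and 16% a negative interaction.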

How the results depend on the processing

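Over the 10 comparisons 124 values of the 34 genes were called, and none changed direction under any alternative. Lost calls numbered 1 with DESeq2 size factors, 1 with its Wald test, 0 with limma-voom, 4 without the filter, 7 with only the groups compared, 8 with total counts and 47 of 792 when single libraries were left out. They concerned 19 values of 14 genes. The number of genes called for 4 h against 1 h of feeding was 12 with only the groups compared, instead of 17. For 1 h of feeding it was 0 to 1 over the libraries left out (DNAJB9, without 1 h fed replicate 1). For feeding under Torin1 it was 1 after 1 h with only the groups compared (PDIA4), and 1 after 4 h with the DESeq2 Wald test and 1 with only the groups compared (HSPA5 in both). For the interaction at 4 h it was 8 to 13 over the libraries left out, the highest without 4 h fed replicate 2. These genes were named after their values were seen. Leaving out single libraries gave 16 to 22 genes for 4 h of feeding, 14 to 18 for 4 h against 1 h, and 25 to 27, 26 to 28 and 23 to 26 for Torin1 in starved, 1 h and 4 h fed cells. The cause of these changes was not tested. The labels do not say that replicate numbers pair the libraries. Libraries were therefore correlated on log CPM after each group's mean was subtracted. The correlation of same-numbered libraries ran from −0.108 to 0.162 over 45 pairs, with 4 over 0.1. Its median was 0.0383, against −0.02 for other numbers. For 14 of 18 libraries the mean correlation was higher with their own number than with the other numbers. That is at most a hint of pairing from the data and not the design. With the replicate block 19 genes were called for 4 h of feeding, 18 for 4 h against 1 h and 27, 27 and 26 for Torin1 in the 3 states, with no call lost. The planned isoform test and its alternatives are not reported. A library's count of 0 allows 0.209 to 0.292 CPM (3 counts), and of the 34 genes DERL3 had the lowest levels.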
